A study of Mus musculus with 11 samples.

Results

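Extracellular adenosine is made from ATP at the cell surface. CD39, encoded by Entpd1, takes ATP and ADP to AMP. CD73, encoded by Nt5e, takes AMP to adenosine, which raises cyclic AMP in T cells through the A2A receptor. Both enzymes are found on mouse regulatory T (Treg) cells. P2X7, encoded by P2rx7, is a channel through which extracellular ATP itself acts on T cells. Adenosine is removed by uptake through the carrier ENT1 (Slc29a1), by deamination to inosine (Ada) and by phosphorylation back to AMP (Adk). The genes described here are these 6, taken with all 17 of their probe sets that carry exactly 1 gene symbol in the array annotation, of 34945 such probe sets of 18193 genes. Adora2a, the A2A receptor gene and the only other of the 7 genes named in the rule, was not analysed here. By gene, Nt5e had 3 probe sets, Entpd1 3, Adk 6, P2rx7 3, Ada 1 and Slc29a1 1.

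The values came from 11 Affymetrix arrays of CD4 T cells from BALB/cA mice (age not stated), sorted as naive CD25-, CD45RB high cells from lymph nodes and spleen. All groups were stimulated with 0.5 µg/ml of an antibody to CD3e and 10 ng/ml of IL-2 on syngeneic feeder cells (spleen cells freed of T cells and given 20 Gy), were infected 24 h later, and were sorted on day 7 as GFP high CD4+ cells. The groups differed in the retrovirus: MIGR1, the empty GFP vector ("mock", 3 arrays), or MIGR1 carrying mouse FoxP3, the transcription factor of Treg cells, as wild type (WT, 3 arrays), as A384T (3 arrays) or as R397W (2 arrays). A384T and R397W are amino acid changes in the forkhead, the DNA-binding domain of FoxP3, and both are known from patients with the immune disorder IPEX. The FoxP3 under study was supplied by a vector to T cells sorted without CD25, FoxP3 made by the cells themselves was not measured, and the cells of each group were a sorted population, in which fewer cells with a transcript and less of it per cell cannot be told apart. Whether each array had a culture of its own is not stated, so the p-values cover the spread from array to array, and that spread could be technical.

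Each value is on a log scale, taken to be log2, relative to the mock median at that probe set. The deposited table had a mock median of exactly 0 at all 45101 probe sets, so expression levels, and any ranking of 1 gene's level against another's, were lost. For the same reason the labelled cell type could not be checked by level. Of 9 CD4 T cell marker probe sets, 2 were called in WT over mock, Cd2 (0.62 ± 0.10, adjusted p = 0.0079) and Cd5 (-0.47 ± 0.10, adjusted p = 0.0385). In A384T over mock 3 were called, Cd2 (0.61), Cd5 (-0.46) and Cd28 (-0.96 ± 0.16, adjusted p = 0.00959). These are 22.2% and 33.3% of the list, beside 3.21% and 2.7% of all probe sets. Cd4 and Cd3e were called in no contrast. Over all probe sets, the share called ran from 0% to 3.21% by contrast. Among markers of other cells, none of 17 B cell and 9 granulocyte and mast cell marker probe sets was called in any contrast, none of 11 marker probe sets of CD8 T, NK and gamma-delta T cells was called, and of 17 macrophage and dendritic cell marker probe sets only that of Adgre1 was called, lower in A384T than in mock (-1.13 ± 0.19, adjusted p = 0.0109) and higher in R397W than in A384T (1.19 ± 0.21, adjusted p = 0.0202). The Foxp3 probe set was at 0.04 in WT over mock (adjusted p = 0.972), 0.27 in A384T over mock (adjusted p = 0.546) and -0.27 in R397W over mock (adjusted p = 1.0); where its probes lie relative to the vector's insert is unknown here, so the groups rest on the sample titles. Differences below are given ± SE from limma, with Benjamini-Hochberg adjustment over the 34945 probe sets, and a probe set is called at an adjusted p under 0.05. The comparisons share their mock or WT arrays and are not independent of one another. The main fit took the arrays as unpaired. With the array number of the titles fitted as a block, more member probe sets were called in every contrast but R397W over mock. Those calls are given at the end.

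Nt5e was the only member gene called in WT over mock in the main fit. It lies on mouse chromosome 9 (GRCm38.p6 chr9:88327609-88372089), with 1 annotated start. The 250 bases before that start are shown because Nt5e is the member that changed most; the sequence is from RefSeq (GRCm38.p6, plus strand), a different mouse strain from the cells. Capitals mark overlapping matches to the GC box GGGCGG, all on the minus strand, that begin 223, 219, 24 and 19 bases before the start.
Nt5e, chr9:88327359-88327608: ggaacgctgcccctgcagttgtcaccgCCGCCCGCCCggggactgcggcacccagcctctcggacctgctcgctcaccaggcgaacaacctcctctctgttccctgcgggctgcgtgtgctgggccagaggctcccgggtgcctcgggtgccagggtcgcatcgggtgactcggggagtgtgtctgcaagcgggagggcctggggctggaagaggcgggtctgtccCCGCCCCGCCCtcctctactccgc
Neither strand of this window held the letters searched for a forkhead site (ATAAACA or GTAAACA), Runx (TGTGGT), NFAT (GGAAAA), AP-1 (TGANTCA) or HIF (ACGTG). Of 32851 mouse promoter windows of the same length, 32.7% held the GC box, 7.1% the forkhead letters, 14% the Runx, 20.4% the NFAT, 6.75% the AP-1 and 16.6% the HIF letters, on either strand. A match is a description of the letters and not a bound site, and FoxP3 binding was not measured here. GC boxes are typical of the GC-rich promoters of many genes.

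At the Nt5e probe set with the widest spread, 1428547_at, the 3 mock arrays were at 0.68, -0.52 and 0, and the 3 WT arrays at 3.70, 3.38 and 3.51. The A384T arrays were at 0.85, 1.16 and 0.85 and the R397W arrays at 0.52 and 0.46. Every WT array stood far above all other arrays; A384T lay above all mock arrays without reaching WT, and both R397W arrays lay inside the range of mock. As group means this gave 0.05 ± 0.60 (SD, n = 3) in mock, 3.53 ± 0.16 (SD, n = 3) in WT, 0.95 ± 0.18 (SD, n = 3) in A384T and 0.49 ± 0.04 (SD, n = 2) in R397W.

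In WT over mock, Nt5e at 1428547_at rose by 3.48 ± 0.25 on the log2 scale, or 11.1-fold (adjusted p = 6.52e-05, limma; 95% interval 2.93 to 4.02). It ranked 23 by size among the 633 probe sets called higher in that contrast. The difference from A384T was -2.57 ± 0.25, 5.96-fold lower in A384T than in WT (adjusted p = 0.00507, limma), the second largest of the 21 probe sets called lower with A384T. Without the 4 arrays numbered 1, 1 in each group, the difference was -2.44 and the call was lost (adjusted p = 0.0642). R397W over WT was -3.04 ± 0.28, 8.24-fold lower in R397W (adjusted p = 0.000456, limma), rank 28 of 417 called lower.

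Between mock and the mutants the data were less decided. A384T over mock was 0.90 ± 0.25 at 1428547_at (95% interval 0.35 to 1.45), which did not pass the test over all probe sets (adjusted p = 0.104). That result depended on the array mock 1, the highest mock array: without it the difference was 1.21 and passed (adjusted p = 0.00979, limma). Without all arrays numbered 1 the difference was 1.27. The result also depended on the model: with the array number as a block and all arrays kept, 0.90 ± 0.22 passed (adjusted p = 0.0271, limma). R397W over mock was 0.43 ± 0.28 (95% interval -0.18 to 1.04, adjusted p = 1.0), and R397W over A384T was -0.47 ± 0.28 (95% interval -1.08 to 0.14, adjusted p = 0.625). In order of their means the groups ran WT, A384T, R397W and mock. WT was separated from each of the others by the test, whereas no neighbouring pair among the other groups was.

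A second Nt5e probe set, 1422974_at, gave the same order with smaller differences. Its mock arrays were at 0.39, 0 and -0.10, its WT arrays at 2.10, 1.92 and 1.60, its A384T arrays at 0.98, 0.40 and 0.58 and its R397W arrays at 0.36 and 0.17. WT again overlapped with no other group, and A384T lay just above the highest mock array. WT over mock was 1.78 ± 0.19, or 3.43-fold (adjusted p = 0.000672, limma), and R397W over WT was -1.61 ± 0.21 (adjusted p = 0.00328). A384T over WT was -1.22 ± 0.19 and missed the threshold (adjusted p = 0.0549); without A384T 1, the highest A384T array, it was -1.39 and passed (adjusted p = 0.0458). A384T over mock was 0.56 ± 0.19 (95% interval 0.14 to 0.98, adjusted p = 0.209) and R397W over mock 0.17 ± 0.21 (95% interval -0.30 to 0.64, adjusted p = 1.0).

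The third Nt5e probe set, 1459023_at, stayed between -0.22 and 0.08 on all 11 arrays, with -0.03 ± 0.10 in WT over mock (95% interval -0.25 to 0.19, adjusted p = 0.968). The probe sets of Nt5e thus disagree, 2 of 3 carrying the response. They measure the same RNA samples and are not replicates, and which part of the gene each one reads was not analysed here.

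**Figure D1:**
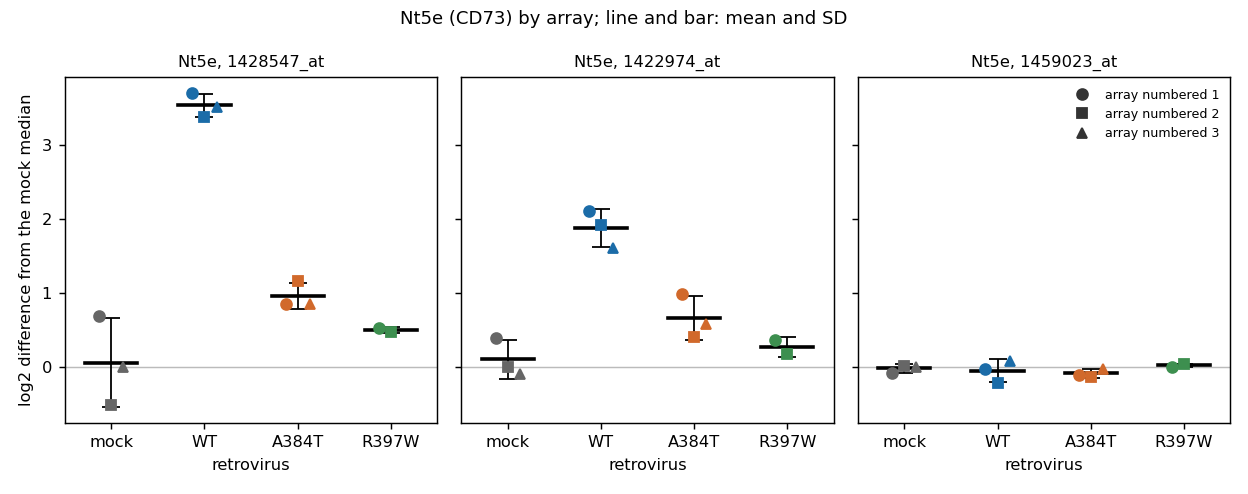
Values of the 3 Nt5e probe sets on each array (y axis, log2 difference from the mock median) by retrovirus (x axis); markers give the array number, lines the group mean and bars the SD. WT arrays sit at 3.38 to 3.70 at 1428547_at and at 1.60 to 2.10 at 1422974_at, above all other arrays, while all groups lie near 0 at 1459023_at.

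Of all 17 member probe sets, few were called in the main fit. In WT over mock 2 were called higher, both of Nt5e, and 0 lower; over all probe sets 3.21% were called. In A384T over mock 1 was called higher (Slc29a1) and 1 lower (Entpd1), where 2.7% of all probe sets were called. In R397W over mock limma called 0 members, and 0% of all probe sets. There 0 of the members and 612 of the 34945 probe sets had an unadjusted p under 0.05. That is below the share of 0.05 expected where no probe set differs, so the absence of calls does not show that R397W equals mock. Why the share was low was not tested. In A384T over WT 1 was called lower (Nt5e), against 0.114% of all. In R397W over WT 2 were called lower, both of Nt5e, against 2.15% of all. In R397W over A384T limma called 0 against 1.83% of all. There 3 of the 17 members and 3845 of the 34945 probe sets had an unadjusted p under 0.05. Such a p was held by 5 members in WT over mock and 8 in A384T over mock, beside 4295 and 4377 of all. It was held by 4 in A384T over WT and 3 in R397W over WT, beside 1492 and 3726 of all. With so few members, most of them probe sets of a gene with several, a count of 1 or 2 calls describes those genes and not the pathway. The median member difference against mock was -0.10 with WT, -0.18 with A384T and 0.05 with R397W, beside medians of all probe sets of -0.00984, -0.00481 and 0.00597.

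**Figure D2:**
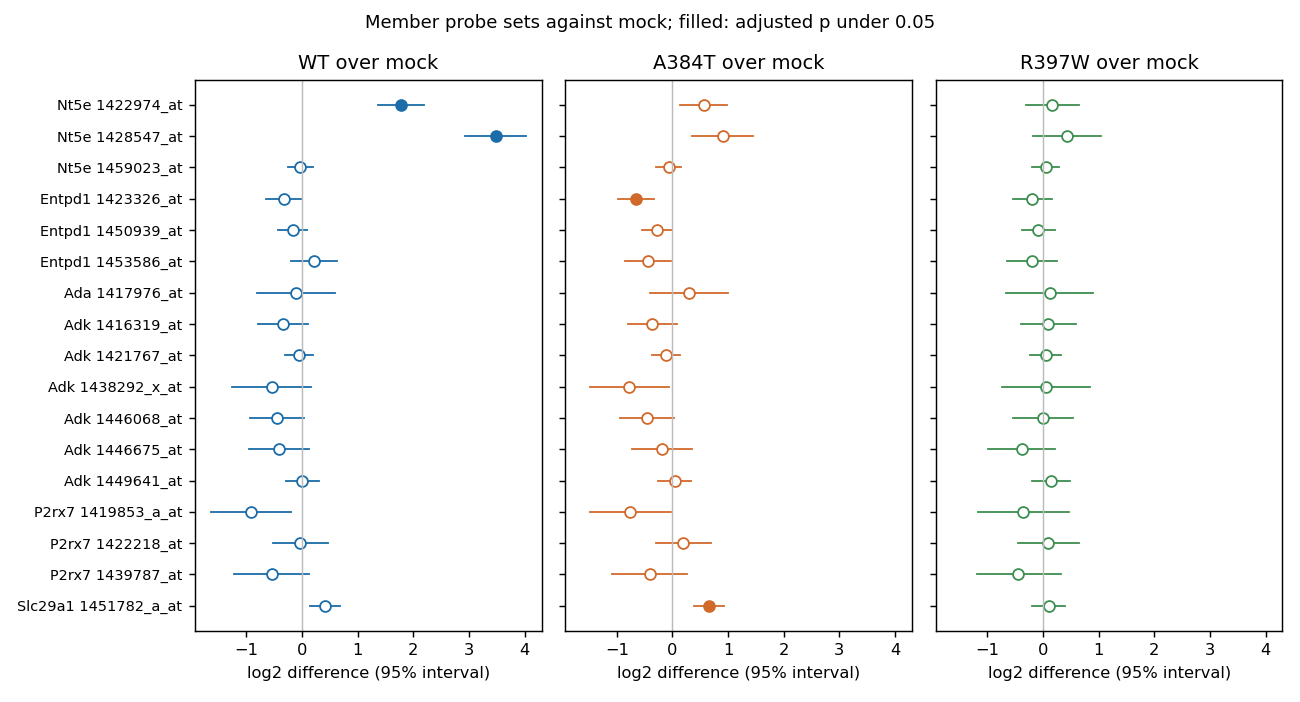
Log2 differences from mock (x axis) of the 17 member probe sets (y axis) in WT, A384T and R397W, with 95% intervals; filled points have an adjusted p under 0.05. Filled points are 2 of Nt5e in WT (3.48 and 1.78), Entpd1 (-0.65) and Slc29a1 (0.66) in A384T, and none in R397W.

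Entpd1, the gene of CD39, did not follow Nt5e. It lies on chromosome 19 (GRCm38.p6 chr19:40612366-40741602). At 1423326_at the mock arrays were at 0, 0.16 and -0.01, the WT arrays at -0.34, -0.23 and -0.25, the A384T arrays at -0.76, -0.79 and -0.26 and the R397W arrays at -0.07 and -0.21. All WT and A384T arrays lay below all mock arrays, and A384T 3 lay among the WT arrays. Entpd1 fell by 0.65 ± 0.14 on the log2 scale in A384T over mock (adjusted p = 0.0368, limma), 1.57-fold. The call was not stable: leaving out 1 array at a time kept it in 1 of 11 fits, that without A384T 3 (-0.83, adjusted p = 0.0038), and elsewhere the adjusted p reached 0.137. WT over mock was -0.32 ± 0.14 (95% interval -0.64 to -0.01, adjusted p = 0.376), and A384T over WT was -0.33 ± 0.14 (adjusted p = 1.0), so WT and A384T were not separated.

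The other Entpd1 probe sets were not called. At 1450939_at A384T over mock was -0.27 ± 0.12 (adjusted p = 0.384). At 1453586_at the mock arrays were at 0.04, -0.28 and 0, the WT arrays at -0.02, 0.06 and 0.38, the A384T arrays at -0.45, -0.90 and -0.23 and the R397W arrays at -0.12 and -0.43. A384T lay below WT on every array here and overlapped with mock. A384T over WT was -0.67 ± 0.18 (95% interval -1.07 to -0.26, adjusted p = 0.522) and WT over mock 0.22 ± 0.18 (adjusted p = 0.767). In WT over mock the Entpd1 probe sets therefore differed in sign, with intervals that reach or nearly reach 0.

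Slc29a1 encodes ENT1, a carrier that moves adenosine across the plasma membrane along its gradient, and lies on chromosome 17 (GRCm38.p6 chr17:45585200-45599618). Its probe set, 1451782_a_at, was at 0, 0.25 and -0.02 in mock, at 0.64, 0.53 and 0.31 in WT, at 0.81, 0.74 and 0.65 in A384T and at 0.11 and 0.25 in R397W. All WT and A384T arrays lay above all mock and R397W arrays. A separation from mock, in either direction, was found at 16.2% (WT) and 15.3% (A384T) of all probe sets. Slc29a1 rose by 0.66 ± 0.12 in A384T over mock, 1.57-fold (adjusted p = 0.0161, limma). WT over mock was 0.41 ± 0.12 (95% interval 0.15 to 0.68, adjusted p = 0.117), A384T over WT 0.24 ± 0.12 (95% interval -0.02 to 0.51, adjusted p = 1.0) and R397W over A384T -0.55 ± 0.13 (adjusted p = 0.079). The call in A384T over mock was lost without mock 1 (adjusted p = 0.069), mock 3 (0.0712), A384T 1 (0.0685) or A384T 2 (0.0609), with a difference between 0.61 and 0.65 in these fits. Over 53 probe sets of 23 genes of DNA replication and the cell cycle, the array medians ran from -0.02 to 0.03 in mock, from 0.11 to 0.68 in WT, from 0.06 to 0.56 in A384T and from 0 to 0.10 in R397W, with each WT and A384T array above the 3 mock arrays here too. In WT against mock 3 of the 53 were called higher (5.66%, beside 3.21% of all probe sets), 2 of Mcm5 and 1 of Rrm2, and in A384T against mock the 2 of Mcm5 (3.77%, beside 2.7%). Without single arrays the Rrm2 call was kept in 2 of 11 fits, and those of Mcm5 in WT in 5 and 9. Their part in the Slc29a1 result was not tested.

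P2rx7 encodes P2X7, an ATP-gated ion channel, and lies on chromosome 5 (GRCm38.p6 chr5:122643927-122692336). Of the 16 annotated starts of the 6 genes, the first of the 2 P2rx7 starts was the only one whose 250-base window held forkhead letters. It is shown for that match, TGTTTAT, which is ATAAACA on the minus strand, begins 48 bases before the start and stands in capitals (RefSeq, GRCm38.p6, plus strand). The same letters were in 7.1% of all windows, so 1 window in 16 is close to the background. The P2rx7 window also held, in lower case, the AP-1 letters 249 bases and the GC box 90 and 11 bases before the start.
P2rx7, chr5:122643677-122643926: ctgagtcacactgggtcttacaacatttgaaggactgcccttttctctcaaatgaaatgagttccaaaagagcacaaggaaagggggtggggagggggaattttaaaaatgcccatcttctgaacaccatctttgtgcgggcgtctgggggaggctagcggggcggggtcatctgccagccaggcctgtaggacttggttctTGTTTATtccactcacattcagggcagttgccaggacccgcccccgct
At 1419853_a_at the mock arrays were at 0, -0.24 and 0.62, the WT arrays at -1.21, -1.02 and -0.13, the A384T arrays at -1.19, -0.45 and -0.27 and the R397W arrays at -0.30 and -0.16. WT 3 lay inside the range of mock and the other WT arrays below it, all A384T arrays lay below mock, the highest of them by little, and the array numbered 3 was the highest in mock, WT and A384T. WT over mock was -0.92 ± 0.33 (95% interval -1.64 to -0.19, adjusted p = 0.239) and A384T over mock -0.76 ± 0.33 (95% interval -1.49 to -0.03, adjusted p = 0.364). Neither passed in the main fit, and both passed with the array number as a block. A second probe set, 1439787_at, was at -0.18, 0 and 0.83 in mock and at -0.58, -0.47 and 0.07 in WT, a difference of -0.54 ± 0.31 (adjusted p = 0.562), with the array numbered 3 again the highest. The third, 1422218_at, was at -0.04 ± 0.22 in WT over mock (adjusted p = 0.982).

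The enzymes that remove adenosine inside the cell passed no test. Adenosine deaminase, Ada (GRCm38.p6 chr2:163726571-163750239), was at 0.24, -0.18 and 0 in mock, 0.38, -0.79 and 0.16 in WT, 0.86, 0.02 and 0.07 in A384T and 0.40 and -0.12 in R397W. The groups overlapped throughout, and in each group the array numbered 1 was the highest. WT over mock was -0.10 ± 0.32 (95% interval -0.80 to 0.60, adjusted p = 0.963), an interval that allows a change of either sign. Adenosine kinase, Adk (GRCm38.p6 chr14:21052574-21448569), spread widest at 1438292_x_at, with mock arrays at 0.15, -1.04 and 0, WT arrays at -0.97, -1.20 and -0.33, A384T arrays at -1.43, -0.82 and -0.99 and R397W arrays at -0.10 and -0.39. Mock 2 lay among the WT and A384T arrays. A384T over mock was -0.78 ± 0.32 here (adjusted p = 0.333), and over the 6 Adk probe sets the difference ran from -0.78 to 0.04 in A384T over mock and from -0.54 to 0 in WT over mock.

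**Figure D3:**
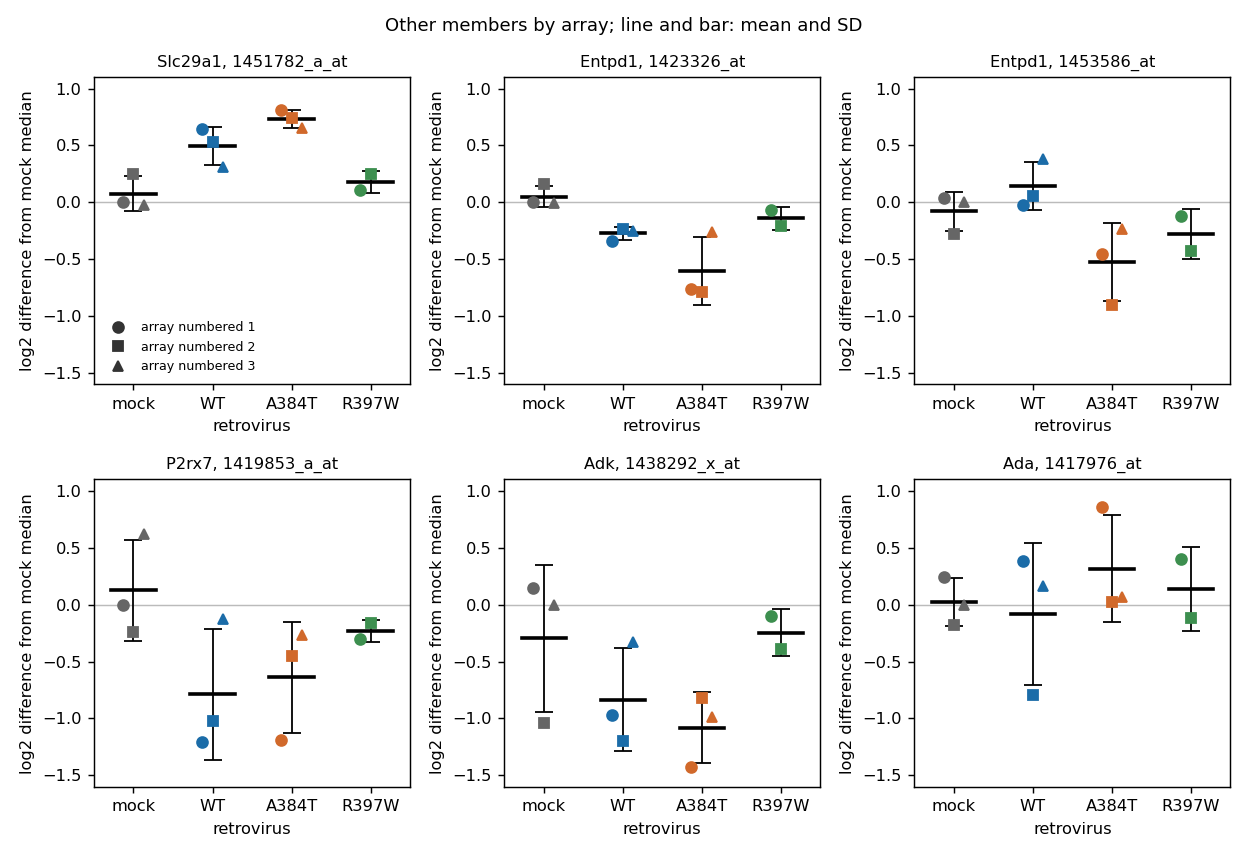
Values on each array (y axis, log2 difference from the mock median) by retrovirus (x axis) at 6 probe sets of the other members; markers give the array number, lines the group mean and bars the SD. Slc29a1 is higher in all WT and A384T arrays than in mock, and Entpd1 at 1423326_at is lower in them. For Ada and Adk both WT and A384T overlap with mock, and for P2rx7 WT overlaps with mock while A384T lies just below it.

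The rest of the pathway was described with 5 lists. Other ecto-nucleotidases and surface enzymes (14 genes, 35 probe sets) had 0 called higher and 5 lower in WT over mock, 0 and 4 in A384T over mock, none in A384T over WT, 5 higher and 0 lower in R397W over WT, and 3 higher and 0 lower in R397W over A384T. These are 14.3%, 11.4%, 0%, 14.3% and 8.57% of the list, beside 3.21%, 2.7%, 0.114%, 2.15% and 1.83% of all probe sets, and they come from 3 genes at most. Those called lower with WT were Dpp4, the surface peptidase CD26 (1416697_at, -0.90 ± 0.16, adjusted p = 0.0115), 3 probe sets of Entpd5, an intracellular relative of CD39 (1433763_at at -0.75 ± 0.11, adjusted p = 0.00465), and Acpp, an acid phosphatase that can also make adenosine from AMP (1441975_at, -0.98 ± 0.21, adjusted p = 0.0314). Dpp4 at 1416697_at was at 0.42, 0 and -0.13 in mock, at -0.67, -0.83 and -0.90 in WT, at -0.78, -0.95 and -1.06 in A384T and at 0.39 and 0.06 in R397W. CD26 binds adenosine deaminase at the cell surface in humans. WT and A384T lay together below mock and R397W, a different order from that of Nt5e. Dpp4 at 1416697_at lost its call in WT over mock without WT 2 (adjusted p = 0.0515, limma). Acpp lost its call there without any 1 of the mock arrays, WT 1 or WT 3 (adjusted p up to 0.123).

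Among other adenosine and P2 receptors (15 genes, 23 probe sets) 2 were called lower in WT over mock (8.7%, beside 3.21% of all probe sets). In A384T over mock 1 was called lower (4.35%, beside 2.7%). In A384T over WT 1 was called higher (4.35%, beside 0.114%), and in R397W over WT 1 higher (4.35%, beside 2.15%). With 23 probe sets each call is 4.35% of the list, so these counts describe single genes. P2ry14, a receptor for UDP-glucose, was at 0.01, -0.12 and 0 in mock, at -1.05, -1.64 and -1.13 in WT, at 0.45, 0.38 and 0.31 in A384T and at -0.16 and 0.02 in R397W. It was low in WT arrays only, and A384T lay above every other group. WT over mock was -1.24 ± 0.15 (adjusted p = 0.00116), A384T over WT 1.65 ± 0.15 (adjusted p = 0.00418), R397W over WT 1.20 ± 0.16 (adjusted p = 0.004; 0.054 without R397W 2) and A384T over mock 0.42 (adjusted p = 0.228). P2ry1, an ADP receptor, was instead called lower in both WT (-2.26 ± 0.45, adjusted p = 0.0226) and A384T (-2.14 ± 0.45, adjusted p = 0.0332) over mock, calls that were kept in 6 and 3 of 11 fits that left out 1 array (adjusted p up to 0.095 and 0.127). Nucleoside carriers other than Slc29a1 and ATP release channels (7 genes, 13 probe sets) had 0 called by limma in all 6 contrasts. Of all probe sets 0% to 3.21% were called in these contrasts, so 0 of 13 is close to that share.

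Among cytosolic nucleotidases and purine salvage enzymes (23 genes, 50 probe sets) 2 were called higher and 0 lower in WT over mock (4%, close to the 3.21% of all probe sets), and 2 higher and 1 lower in A384T over mock (6%, beside 2.7%). The ones higher were in both cases those of Ahcyl2, a relative of adenosylhomocysteine hydrolase, the enzyme that releases adenosine inside the cell. At 1428195_at Ahcyl2 was at -0.07, 0.23 and 0 in mock, at 1.82, 2.09 and 1.80 in WT, at 1.44, 1.74 and 1.49 in A384T and at 0.06 and 0.27 in R397W. WT and A384T both lay above mock and R397W: WT over mock was 1.85 ± 0.13 (adjusted p = 6.52e-05), A384T over mock 1.50 ± 0.13 (adjusted p = 0.000242) and A384T over WT -0.35 ± 0.13 (adjusted p = 0.987). In R397W over WT 1 probe set was called higher (Xdh, xanthine oxidoreductase, 1.93 ± 0.39, adjusted p = 0.0341) and 3 lower, those of Ahcyl2 and Ampd1, muscle-type AMP deaminase (-1.29 ± 0.26, adjusted p = 0.0326), together 8% beside 2.15% of all. Neither Xdh nor Ampd1 was called against mock. Xdh was at -1.40 ± 0.35 in WT over mock (adjusted p = 0.0691, limma) and 0.54 ± 0.39 in R397W over mock. Ampd1 was at 0.89 ± 0.23 in WT over mock (adjusted p = 0.0804, limma) and -0.40 ± 0.26 in R397W over mock. The 1 called lower in A384T over mock was of Ampd2, another AMP deaminase (-0.47 ± 0.10, adjusted p = 0.0368). Leaving out 1 array at a time kept the calls of Xdh and Ampd1 in 4 of 11 fits each, and both were lost without either R397W array (adjusted p up to 0.204 and 0.182).

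In the cyclic AMP pathway downstream of the A2A receptor (24 genes, 78 probe sets) 5 were called higher in WT over mock (6.41%, beside 3.21% of all probe sets) and 1 in A384T over mock (1.28%, below the 2.7% of all). None was called in A384T over WT, and 4 were called lower in R397W over WT (5.13%, beside 2.15%). None of these 4 calls held in every fit that left out 1 array. Those of Crem at 1449037_at and Prkar1b at 1440132_s_at were lost in most of these fits. All probe sets called in these contrasts belonged to Prkar1b, a regulatory subunit of protein kinase A, and Crem, a transcription factor of the CREB family. Prkar1b at 1434325_x_at was at 2.10 ± 0.32 in WT over mock (adjusted p = 0.00605), 1.11 ± 0.32 in A384T over mock (adjusted p = 0.129) and -0.99 ± 0.32 in A384T over WT (adjusted p = 0.808). Crem at 1449037_at was at 1.59 ± 0.18 in WT over mock (adjusted p = 0.00106), 0.93 ± 0.18 in A384T over mock (adjusted p = 0.026; up to 0.0979 without 1 array, the call being lost without any mock array, A384T 2 or A384T 3) and -0.67 ± 0.18 in A384T over WT (adjusted p = 0.522). In R397W over mock limma called 0 probe sets of any list. Crem was at 0.60 ± 0.21 (1449037_at) and 1.04 ± 0.34 (1418322_at) in that contrast.

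**Figure D4:**
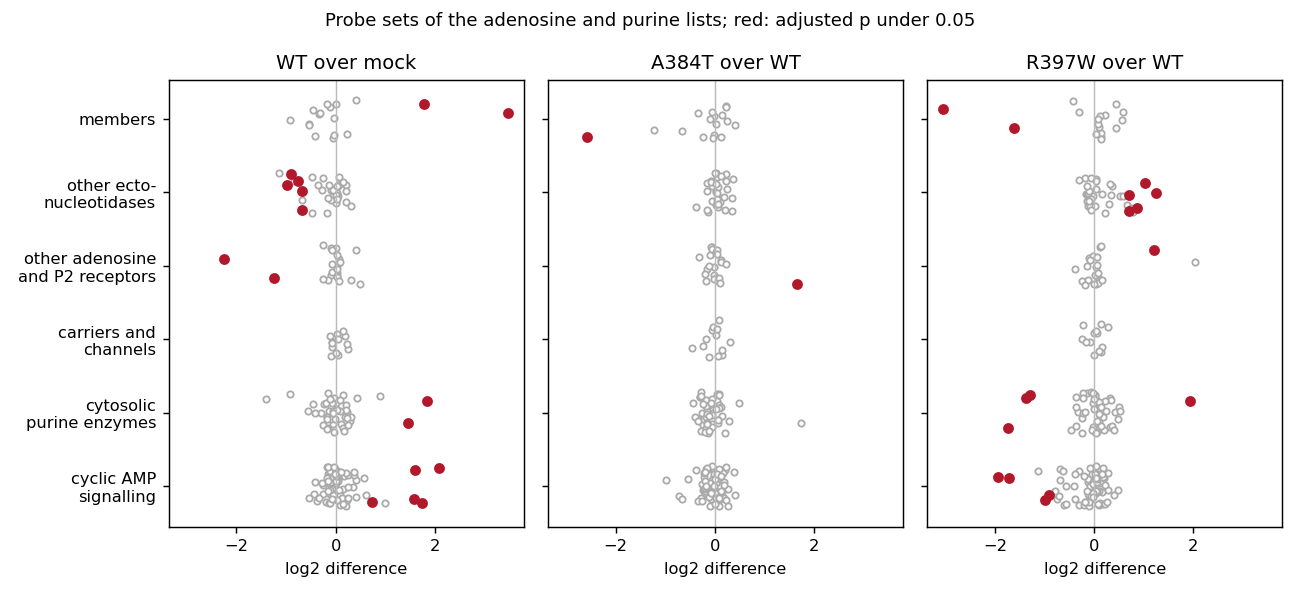
Log2 differences (x axis) of the member probe sets and of the 5 other lists (y axis, points spread vertically for visibility) for WT against mock (left), A384T against WT (middle) and R397W against WT (right); red points have an adjusted p under 0.05. In A384T over WT the red points are Nt5e at -2.57 and P2ry14 at 1.65.

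The genes whose pattern over the 11 arrays was most like that of Nt5e at 1428547_at, by Pearson correlation and as a description, were Igf2bp3 (r = 0.965), Cym (r = 0.962) and B3galnt1 (r = 0.96). B3galnt1 was at 2.67 in WT over mock and 0.63 in A384T over mock, Cym at 1.73 and 0.53, and Igf2bp3 at 1.15 and 0.31; all were, like Nt5e, high in WT. Nearest to Slc29a1 were Tesc (r = 0.966), Treml2 (r = 0.965) and Fah (r = 0.962), with Fah at 1.94 (WT) and 3.05 (A384T) over mock. Nearest to P2rx7 were Ccdc126 (r = 0.967), Tle4 (r = 0.945) and Atg13 (r = 0.943), nearest to Adk were Ube2h and Ric8a (both r = 0.967) and Rbbp9 (r = 0.96), nearest to Ada were Cybc1 (r = 0.955), Usp40 (r = 0.94) and Glt8d1 (r = 0.937), and nearest to Entpd1 at 1453586_at were Bicral (r = 0.918), Adck5 (r = 0.909) and Ccnb1ip1 (r = 0.904). These points share their groups and array numbers, and each gene was picked as the best of all genes.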

How the data were processed

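Total RNA of 11 samples was hybridised to Affymetrix arrays, 1 per sample, and groups were taken from the sample titles. The deposited values are log2 values from RMA (version not given), as the submitters' processing notes state; RMA subtracts background, makes the arrays' distributions equal and gives 1 value per probe set. The centring on mock is not stated there, nor is the base of the logarithm, taken to be 2. Gene symbols came from the platform annotation: 34945 probe sets had 1 symbol after 13 control probe sets were left out, and 932 with several and 9211 with none were not used. The member genes and all lists were chosen with earlier results of these data known.

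In R 4.3.3, limma 3.58.1 fitted a mean for each group at each probe set, using all 11 arrays, and 6 contrasts were tested two-sided with eBayes and Benjamini-Hochberg adjustment (threshold 0.05). The fit had 7 residual degrees of freedom; the median SE of a difference was 0.142 for 3 arrays against 3 and 0.159 for 3 against 2, and the number of arrays limits the precision. The procedure was also run on simulated data with independent noise on each array. That run could not test how correlation between arrays of the same number affects the calls. Named beyond the members were up to 4 called probe sets per list with the largest difference in WT against mock or in either mutant against WT, and the 3 genes most like each member. Adgre1, Ampd2, Cd28 and the Foxp3 probe set were added after their values were seen. Positions and promoter windows of all 6 genes came from RefSeq tables (GRCm38.p6). Positions were matched by gene identifier and windows by symbol, and the 50 bases after each start were left out. Alternatives were the array number as a block, 1 value per gene, all probe sets, another variance prior, only the groups compared, a filter on spread, array centring, and leaving out arrays. Python 3.11.15 with pandas 2.3.3 made the tables, and matplotlib 3.10.9 the figures.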

Additional observations from a re-analysis of the deposited data

How the results depend on the processing

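Of 1848 values of single member probe sets under the alternatives, 1746 kept their direction and their side of the threshold, 17 newly passed it, 22 no longer did, and 63 uncalled values changed sign. No called value turned its direction. Most of the 1848 were of results not called in the report, so these totals say little about the called ones. Nearly all calls lost were those of Entpd1 and Slc29a1 in A384T over mock. Of 2112 values of the other named pathway probe sets, tried under the same alternatives after seeing the data, 1814 kept direction and side, 233 no longer passed and 34 newly passed. The counts of called member probe sets moved more. In WT over mock (2 in the report) the count was 5 with the array number as a block, and 1 gene, Nt5e, with the probe set of largest spread per gene or the mean per gene. In A384T over mock (2) it was 7 with the block, 1 with either value per gene, 0 with a trended robust prior, 0 with only those groups fitted, 1 among the more variable probe sets (spread above the median), 1 without the arrays numbered 1, and 0 to 2 without single arrays. In A384T over WT (1) it was 3 with the block, 2 among the more variable probe sets, 0 without the arrays numbered 1, and 1 to 2 without single arrays. In R397W over WT (2) it was 3 with the block and 1 with either value per gene. In R397W over A384T (0) it was 1 with the block, 1 with the mean per gene, and 0 to 1 without single arrays. In R397W over mock limma called 0 throughout. A gene counts once where each has 1 value; otherwise the cause was not tested. Where 1 R397W array was left out, the other was assumed to vary like the other groups.

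The titles number the arrays, and the labels do not say what a number stands for. Deviations from the group means correlated at 0.0858 to 0.719 in 15 pairs of the same number and at -0.699 to 0.327 in 30 other pairs; all 11 arrays had their highest correlation with an array of the same number, a hint from the data and not from the design. The numbers were not taken as pairing, because 1 pair, mock 2 and A384T 2, lay under 0.1, the limit used here. All pairs of the same number correlated positively, so this limit does not show that the arrays were unpaired. With the number as a block, calls over all probe sets went from 1121 to 3026 in WT over mock, 942 to 2923 in A384T over mock, 40 to 206 in A384T over WT, 752 to 2238 in R397W over WT and 641 to 2275 in R397W over A384T. The block added 12 calls of member probe sets. In WT over mock these were P2rx7 at 1419853_a_at (-0.92, adjusted p = 0.00533) and 1439787_at (-0.54, adjusted p = 0.00836) and Slc29a1 (0.41, adjusted p = 0.0322). In A384T over mock they were P2rx7 at the same probe sets (-0.76 and -0.41, adjusted p = 0.0158 and 0.037), Nt5e at 1422974_at and 1428547_at (0.56 and 0.90, adjusted p = 0.0117 and 0.0271) and Entpd1 at 1453586_at (-0.44, adjusted p = 0.0478). In A384T over WT they were Nt5e at 1422974_at (-1.22, adjusted p = 0.000942) and Entpd1 at 1453586_at (-0.67, adjusted p = 0.0405), in R397W over WT P2rx7 at 1419853_a_at (0.81, adjusted p = 0.0277) and in R397W over A384T Slc29a1 (-0.61, adjusted p = 0.0124). Trended robust priors called 497 probe sets in WT over mock and 369 in A384T over mock.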
